A study of Mus musculus with 12 samples.

Results

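Endothelial markers and angiogenic receptors were followed in kidneys of mice after renal ischemia-reperfusion. The set held 10 genes of the 23420 in the count table, picked by symbol for their known roles: Pecam1, Cdh5, Emcn, Ehd3, Plvap, Kdr, Flt1, Tek, Angpt2 and Eng. All 10 had a row in the table, and 8 passed the low-count filter, which kept 11664 genes. Emcn and Angpt2 did not pass and were not tested.

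RNA was sequenced from 12 kidneys of adult male C57BL/6J mice, with no transgene or other allele named. The series design counts 4 mice in each group, and whether a control kidney came from a mouse that was later made ischemic is not stated. The 4 control kidneys were taken at nephrectomy as the normal tissue, although their labels carry the same treatment text as the others. The 8 ischemic kidneys had 20 min of pedicle clamping and 24 h of reperfusion. In the paper's general methods, surgery under ketamine and xylazine, with buprenorphine, places the clamp on the left pedicle. The clamp is closed at least 24 h later, and the nephrectomy described removes the right kidney. Ischemia, this surgery, its drugs and kidney side therefore cannot be told apart in comparisons with the controls, and their parts were not tested. Their labels contradict each other on anaesthesia. The 4 kidneys of ischemia set A are anaesthetised by title (ISCH_ANESTH) and conscious by group field, and the 4 kidneys of ischemia set B are conscious by title (ISCH_CONCIOUS) and anaesthetised by group field. These names are neutral, and nothing is said here of the direction of an effect of anaesthesia. The edgeR p-values set differences between group means against the spread between these kidneys, and the permutation p-values against relabelings of them.

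Endothelial cells line the arteries, the glomerular capillaries and the peritubular capillaries of the kidney. VEGF-A, made largely by podocytes and tubules, signals to them through VEGFR2 (Kdr), while VEGFR1 (Flt1) binds the same ligand and mostly limits that signal. The angiopoietins act on TIE2 (Tek), with ANGPT1 as the stabilising agonist and ANGPT2 as a ligand that can oppose it, and endoglin (Eng) is a co-receptor for BMP and TGF-β ligands.

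The promoters of 6 members are in the RefSeq table (Ehd3, Emcn, Eng, Flt1, Kdr and Tek). Those of Tek and Kdr, the members that were lower after ischemia, and of Eng, the member of highest level, which did not pass the test, are shown so that the letters near their start sites can be compared. Each holds 250 bases before and 50 after the start in GRCm38.p6, read 5′ to 3′ on the strand of the gene. They lie at chr4:94739039-94739338 on the plus strand for Tek, chr5:75978406-75978705 on the minus strand for Kdr and chr2:32646345-32646644 on the plus strand for Eng. Capitals mark the motifs searched on either strand. For ETS factors these were CCGGAA or else AGGAAG, and for GATA factors AGATAA. The core of the hypoxia response element was searched as ACGTG, and the KLF motif as CACCC. No match overlapped that of another motif.
Tek: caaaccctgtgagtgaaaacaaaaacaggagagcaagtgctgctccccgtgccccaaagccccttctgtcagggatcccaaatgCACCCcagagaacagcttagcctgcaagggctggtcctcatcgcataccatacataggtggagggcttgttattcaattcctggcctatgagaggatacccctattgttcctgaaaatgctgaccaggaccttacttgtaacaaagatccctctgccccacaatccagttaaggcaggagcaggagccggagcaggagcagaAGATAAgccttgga
Kdr: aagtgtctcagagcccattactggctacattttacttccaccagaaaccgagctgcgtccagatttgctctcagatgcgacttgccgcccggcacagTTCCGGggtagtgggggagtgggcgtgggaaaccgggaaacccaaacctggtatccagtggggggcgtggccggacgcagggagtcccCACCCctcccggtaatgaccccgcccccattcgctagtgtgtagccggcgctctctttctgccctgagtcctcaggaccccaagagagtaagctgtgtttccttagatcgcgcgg
Eng: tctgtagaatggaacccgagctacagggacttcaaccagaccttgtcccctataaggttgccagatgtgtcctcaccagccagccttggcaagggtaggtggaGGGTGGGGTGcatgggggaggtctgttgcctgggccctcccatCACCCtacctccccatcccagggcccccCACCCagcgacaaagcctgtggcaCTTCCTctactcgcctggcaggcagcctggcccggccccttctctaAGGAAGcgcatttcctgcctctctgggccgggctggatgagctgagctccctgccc
The Tek window held 1 CACCC and, from the start site on, 1 AGATAA. The Kdr window held 1 CCGGAA, read on the other strand, and 1 CACCC. The Eng window held AGGAAG at 2 places and CACCC at 4. Over the 6 member promoters, AGGAAG was found in 4, CACCC likewise in 4, CCGGAA in 1, AGATAA in 1 and ACGTG in 1. Among all 32851 promoters of this length, CCGGAA occurred in 14.9%, AGGAAG in 35.4%, AGATAA in 11.2%, ACGTG in 19.6% and CACCC in 57.5%. Tek and Kdr shared CACCC only, of the motifs searched, and Eng held it too.

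Total counts lay between 15367342 and 44793350 per kidney, so 3 counts, taken as the floor, were worth 0.067 to 0.195 CPM (counts scaled to the library total), for counting error only. In control kidneys the members ran from no counts (Angpt2) to a mean CPM at the 80.7th percentile of the genes tested (Eng), a rank not corrected for gene length. RPKM, counts scaled to exon length and library total, was the only length-corrected scale here and was used to compare levels between genes. On it, Eng stood at 20.0 ± 7.04 (SD, n = 4) and Tek at 14.7 ± 2.41. Kdr at 4.48 ± 0.111, Ehd3 at 3.75 ± 0.847 and Cdh5 at 3.35 ± 0.665 formed the next group. Flt1 followed at 0.779 ± 0.163 and Plvap at 0.689 ± 0.300, and Pecam1 at 0.142 ± 0.169, Emcn at 0.062 ± 0.079 and Angpt2 at 0 came last. The kidneys' ranges overlapped between neighbours in this order for Eng and Tek, for Kdr, Ehd3 and Cdh5, for Flt1 and Plvap, and for Pecam1 and Emcn, whereas all 4 controls had Tek above Kdr, Cdh5 above Flt1 and, by a narrow margin, Plvap above Pecam1.

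The defining markers Pecam1 and Emcn had few counts, and the genes are therefore described by name and not as a measure of endothelial content. Pecam1, an adhesion molecule of endothelial junctions, leukocytes and platelets, had between 0 and 94 counts and stood at 0 in 5 of the 12 kidneys, including 1 control. Emcn, the sialomucin endomucin of capillary and venous endothelium, had 35 and 12 counts in control replicates 2 and 3, 36 in set A replicate 3, 11 in set B replicate 1 and 0 in the other 8 kidneys. Such gaps were a property of the table at this level. Among the 2414 genes with a mean of 10 to 50 counts, 98.6% had a 0 in at least 1 kidney and 42.3% of all values were 0. The source of these zeros is not stated, and a 0 in this table is therefore not read as a bound on a level.

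**Figure D1:**
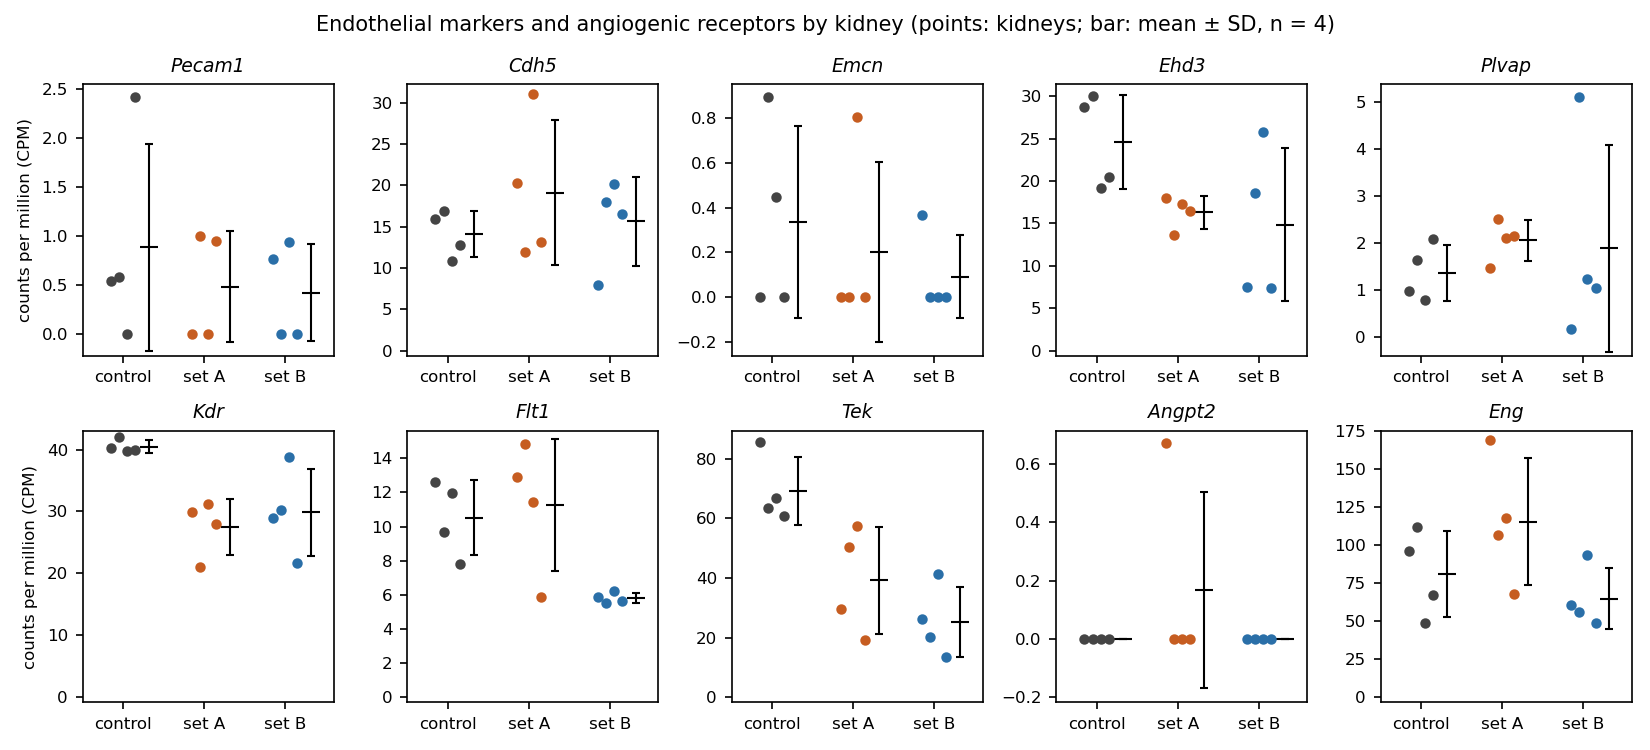
CPM (vertical axes, linear) of the 10 member genes in each kidney (points), with the mean ± SD of each group of 4 (bars), for control, ischemia set A and ischemia set B. All 8 ischemic kidneys lie below all 4 controls for Tek and Kdr, the set B kidneys lie below the controls for Flt1, and Pecam1, Emcn and Angpt2 are at 0 in many kidneys.

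Tek, the TIE2 receptor (4:94739289-94874976 in mm10, plus strand), showed the clearest difference among the members. The 4 controls stood at 85.7, 63.4, 66.8 and 60.7 CPM. In set A the values were 29.6, 50.4, 57.6 and 19.2 CPM. In set B they were 26.1, 20.1, 41.2 and 13.5 CPM. All 8 ischemic kidneys were thus below the lowest control, and set A replicate 3 came closest to it. Tek fell by 1.16 ± 0.27 on the log2 scale over both sets (standard error, as for all log2 fold changes below), with an adjusted p of 0.00254 (edgeR quasi-likelihood F-test, adjusted by Benjamini-Hochberg over all genes tested). By the two-sided exact permutation test on mean CPM, p was 0.00404, where 0.00202 is the smallest possible. In bulk tissue, fewer cells of a type and less RNA per cell cannot be told apart.

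The decrease in Tek was tested in each set against the same 4 controls, so these comparisons are not independent. In set B, Tek fell by 1.47 ± 0.33 on the log2 scale (edgeR adjusted p = 0.00224), from 69.2 ± 11.3 (SD, n = 4) to 25.2 ± 11.8 CPM. In set A, at 39.2 ± 17.9 CPM, the log2 fold change was -0.84 ± 0.32 and missed the threshold (edgeR adjusted p = 0.0696). The exact permutation p was 0.0286 for each set, the smallest that 4 against 4 kidneys allow. The sets themselves differed by -0.63 ± 0.32 (B against A), with an edgeR adjusted p of 0.9997, and their ranges overlapped. The set A call depended on the processing, with an adjusted p between 0.0131 and 0.081 over 7 other settings and between 0.0319 and 0.199 when each kidney was left out, and it passed without set A replicate 3, set B replicate 3 or set B replicate 4 (0.038, 0.0418 and 0.0319).

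Kdr, the main signalling receptor for VEGF-A (5:75932827-75978458, minus strand), showed a smaller difference with very even controls. The controls lay at 40.2, 42.0, 39.8 and 40.0 CPM. Set A lay at 29.9, 20.97, 31.3 and 28.0 CPM, and set B at 28.9, 30.2, 38.8 and 21.6 CPM. Here too all 8 ischemic kidneys were below every control, set B replicate 3 only just. Kdr fell by 0.52 ± 0.19 on the log2 scale over both sets (edgeR adjusted p = 0.0497), and the exact permutation p was 0.00202, the smallest possible. This call sat at the threshold. Its adjusted p ranged from 0.0413 to 0.0621 over the other settings, and from 0.0247 to 0.121 when each kidney was left out, passing only without set B replicate 3. Taken alone, set A gave -0.58 ± 0.22 (edgeR adjusted p = 0.0726) and set B -0.46 ± 0.22 (0.162).

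Of the 8 member genes tested, 2 were called lower over both sets and none higher, whereas 26.4% of all genes tested were called, 14.2% as lower. In set A none of the 8 was called (22.3% of all genes), and in set B 1 was (22.8% of all genes). At an unadjusted p below 0.05, 3 of the 8 passed over both sets (35.9% of all genes), 2 for set A (31.5%) and 2 for set B (32.7%). The median log2 fold change of the 8 members was -0.46 over both sets, -0.25 for set A and -0.61 in set B, beside -0.03, -0.02 and -0.02 over all genes tested. Tek and Kdr had no overlap between ischemic and control kidneys, which was so for 20.1% of all genes, 11.3% as lower. The same held in set A for Tek, Kdr and Ehd3 (28.5% of all genes, 15.2% as lower) and in set B for Tek, Kdr and Flt1 (26.8%, 14.7% as lower).

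**Figure D2:**
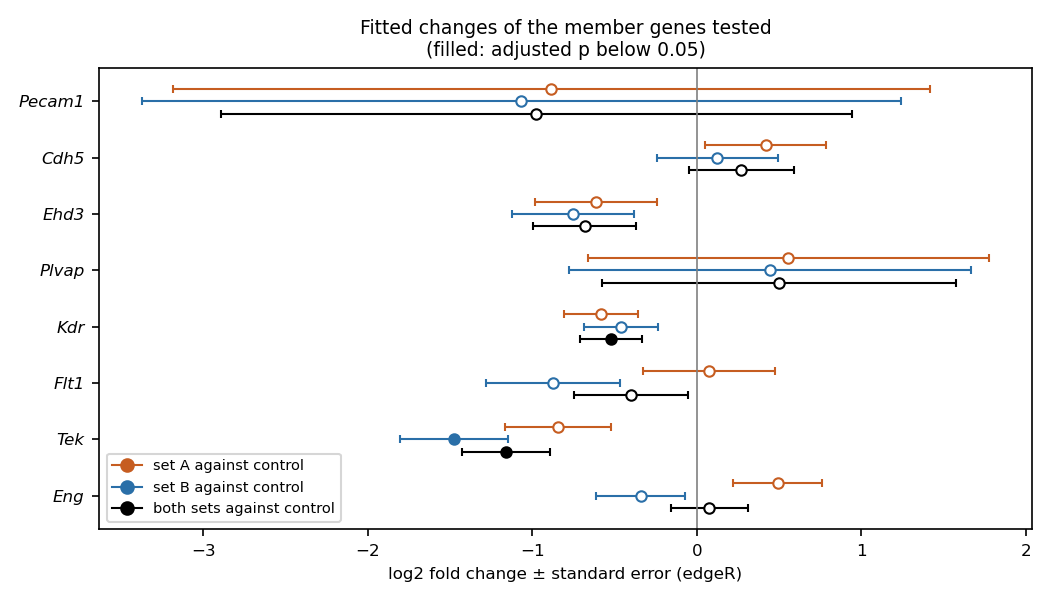
Log2 fold change with its standard error (horizontal axis, edgeR) of the 8 member genes tested, for set A, set B and both sets against the same 4 control kidneys, with filled points for an adjusted p below 0.05. Tek (both sets -1.16, set B -1.47) and Kdr (both sets -0.52) are filled, and Flt1 and Eng lie on either side of 0 in the 2 sets.

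Flt1, the decoy-like VEGF receptor (5:147561604-147726011, minus strand), gave a log2 fold change of -0.40 ± 0.35 over both sets and did not pass (edgeR adjusted p = 0.473). The controls were at 12.6, 9.65, 11.98 and 7.82 CPM. Set A was at 12.9, 14.8, 11.4 and 5.89 CPM and set B at 5.85, 5.53, 6.22 and 5.66 CPM. The set B kidneys were all below the lowest control and close to each other, whereas only 1 kidney of set A was. The log2 fold change was 0.07 ± 0.40 for set A and -0.88 ± 0.41 in set B, with edgeR adjusted p of 0.948 and 0.142. Set B against set A gave -0.95 ± 0.41, with an unadjusted p of 0.0314, an edgeR adjusted p of 0.962 and an exact permutation p of 0.0571, so that a difference between the sets was not shown.

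Eng, the co-receptor endoglin (2:32646595-32682669, plus strand), had the highest mean level per length in the controls and no call in any comparison. The controls read 96.3, 112, 48.6 and 67.3 CPM. In set A, 169, 107, 118 and 68.0 CPM were measured, and in set B 61.0, 55.8, 93.9 and 48.9 CPM. The controls spanned a range of more than 2-fold, and every set B kidney lay within it. The log2 fold change was 0.07 ± 0.23 over both sets (edgeR adjusted p = 0.882), 0.49 ± 0.27 for set A (0.236) and -0.34 ± 0.27 for set B (0.450). Between the sets, the difference of -0.83 ± 0.27 (B against A) had an unadjusted p of 0.00643, an edgeR adjusted p of 0.930 and an exact permutation p of 0.0571. Eng and Flt1 were the 2 members of 8 with an unadjusted p below 0.05 between the sets, beside 5.03% of all genes tested, and no member was called there (0.00857% of all genes, 1 gene). Eng shares positions with Fpgs on the opposite strand and with small RNA genes on its own strand, and the strand setting of the counting is not stated.

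Cdh5, VE-cadherin of the endothelial junction (8:104101625-104144511, plus strand), did not pass in any comparison. The controls were at 15.9, 16.9, 10.8 and 12.8 CPM, set A at 20.3, 11.9, 31.1 and 13.2 CPM and set B at 7.89, 17.9, 20.2 and 16.5 CPM. Ischemic kidneys lay on both sides of the controls, with 4 of 8 above the highest control and 1 below the lowest. The log2 fold change over both sets was 0.27 ± 0.32 (edgeR adjusted p = 0.628).

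Ehd3, an endocytic recycling protein used as a marker of glomerular endothelium (17:73804134-73832094, plus strand), was lower in most ischemic kidneys without passing the threshold. The controls were at 28.7, 30.0, 19.1 and 20.5 CPM. Set A gave 18.03, 13.6, 17.3 and 16.4 CPM, all below the lowest control, and set B gave 7.56, 18.6, 25.8 and 7.35 CPM. Replicate 3 of set B, at 25.8 CPM, was the 1 ischemic kidney of 8 within the control range. The log2 fold change over both sets was -0.68 ± 0.31 (edgeR adjusted p = 0.121, exact permutation p = 0.0343). Without set B replicate 3 it was -0.89 and passed (adjusted p = 0.0304, within a range of 0.0304 to 0.297 when each kidney was left out), and set B alone was then -1.16 (adjusted p = 0.0353).

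Plvap, the protein of fenestral and stomatal diaphragms (8:71497765-71511752, minus strand), had low and uneven counts. They ran from 5 to 94, or 0.784 to 2.08 CPM in controls, 1.47 to 2.52 CPM for set A and from 0.167 up to 5.09 CPM within set B. Both extremes of CPM were in set B, in replicates 1 and 2. The log2 fold change over both sets was 0.50 ± 1.08 (edgeR adjusted p = 0.818), and that of Pecam1 (11:106654217-106750628, minus strand) was -0.97 ± 1.92 (0.797). Angpt2, the context-dependent TIE2 ligand (8:18690263-18741562, minus strand), had 21 counts in set A replicate 1 and 0 in the other 11 kidneys and was not tested. Plvap and Angpt2 overlap Gtpbp3 and Mcph1 on the opposite strand.

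Ratios of counts within a kidney do not depend on its library size. They set Ehd3, Plvap, Kdr, Flt1, Tek and Eng against Cdh5. The choice of Cdh5 as the base leaves its own variation in every ratio. Cdh5 itself was above the highest control in 4 of 8 ischemic kidneys, which lowers the ratios there. Ehd3 per Cdh5 was 1.60 to 1.81 in the controls and 0.445 to 1.28 in the ischemic kidneys, so all 8 were below. Tek per Cdh5 was 3.76 to 6.19 in the controls, 1.46 to 4.22 for set A and 0.815 to 3.31 in set B, with 7 of 8 ischemic kidneys below and set A replicate 2 inside the control range. Kdr per Cdh5 was 2.49 to 3.69 in the controls and 1.01 to 3.67 in the ischemic kidneys, again with 7 of 8 below. Set B replicate 1 was the kidney inside the control range. Eng per Cdh5 was 4.50 to 6.65 in the controls, 3.81 to 8.97 for set A and 2.96 to 7.72 in set B, on both sides. Flt1 per Cdh5 was below every control in 5 of 8 ischemic kidneys and above in 1. Plvap per Cdh5 was below in 2 and above in 3. The share of all genes tested without overlap in such a ratio was not computed, so these counts have no background beside them.

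**Figure D3:**
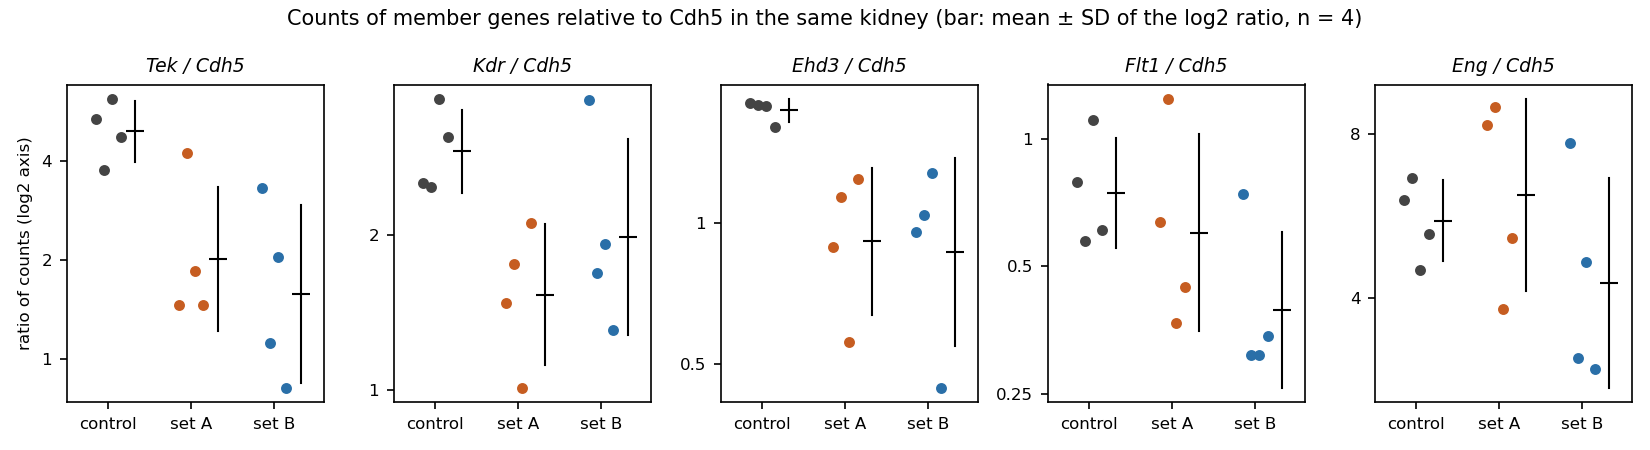
Ratio of counts to Cdh5 in the same kidney (vertical axes, log2 scale) for Tek, Kdr, Ehd3, Flt1 and Eng, with a point per kidney and the mean ± SD of the log2 ratio per group of 4. All 8 ischemic kidneys are below the controls for Ehd3 (0.445 to 1.28 against 1.60 to 1.81) and 7 of 8 for Tek and for Kdr. Flt1 and Eng have ischemic kidneys on both sides of the controls.

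The VEGF receptors were also set against each other. Flt1 per Kdr, the ratio of the VEGF-limiting to the VEGF-signalling receptor, was 0.196 to 0.314 in the controls. It was 0.211 to 0.708 in set A, with 3 of 4 kidneys above every control, and 0.161 to 0.262 in set B, with 2 of 4 below every control. The ratio describes the counts and was not tested.

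Ligands of these receptors were among the genes called lower. Angpt1, the TIE2 agonist, was at 24.2 CPM in the controls (18.9 to 28.9), 4.90 in set A (1.01 to 9.25) and 9.33 in set B (5.47 to 12.2). It fell by 1.87 ± 0.39 on the log2 scale over both sets (edgeR adjusted p = 0.00109), and all 8 ischemic kidneys were below all controls. The log2 fold change of Angpt1 was -2.33 ± 0.49 in set A (edgeR adjusted p = 0.00146) and -1.40 ± 0.48 in set B (0.0412), beside -0.84 and -1.47 for Tek. Tek per Angpt1 was 2.22 to 4.20 in the controls, 5.46 to 19.0 for set A and 1.93 to 3.38 in set B, so that set A lay above and set B beside the controls. Tie1, the co-receptor of TIE2, and Ptprb, the phosphatase VE-PTP that dephosphorylates TIE2, were the other tested genes of this pathway and fell outside the rule for naming genes. Tie1 gave -0.68 ± 0.29 over both sets (edgeR adjusted p = 0.0941) and Ptprb -0.49 ± 0.18 (0.0503). In set B alone, Ptprb fell by 0.69 ± 0.21 (0.0219). In all, 1 of 3 tested pathway genes was called lower over both sets (14.2% of all genes tested) and 2 in set B (11.9%), and Angpt4 had no counts.

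Vegfa, the principal ligand of Kdr and Flt1, was at 704 CPM in the controls (658 to 741), 451 in set A (378 to 538) and 454 in set B (397 to 532). It fell by 0.66 ± 0.11 on the log2 scale (edgeR adjusted p = 6.42e-05), with all 8 ischemic kidneys below the controls. Vegfb, a ligand of Flt1, fell by 0.77 ± 0.22 (adjusted p = 0.0118), from 42.8 to 25.5 CPM, with 6 of 8 ischemic kidneys below the controls. Of the 6 tested genes for VEGF ligands, co-receptors and the VEGF-C receptor Flt4, these 2 were lower and none was higher, and all 6 had a negative log2 fold change (median -0.44). Over all genes tested, 14.2% were called lower and 51.4% had a negative log2 fold change. The other 4 were Vegfc, Flt4, Nrp1 and Nrp2, and none of them passed.

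**Figure D4:**
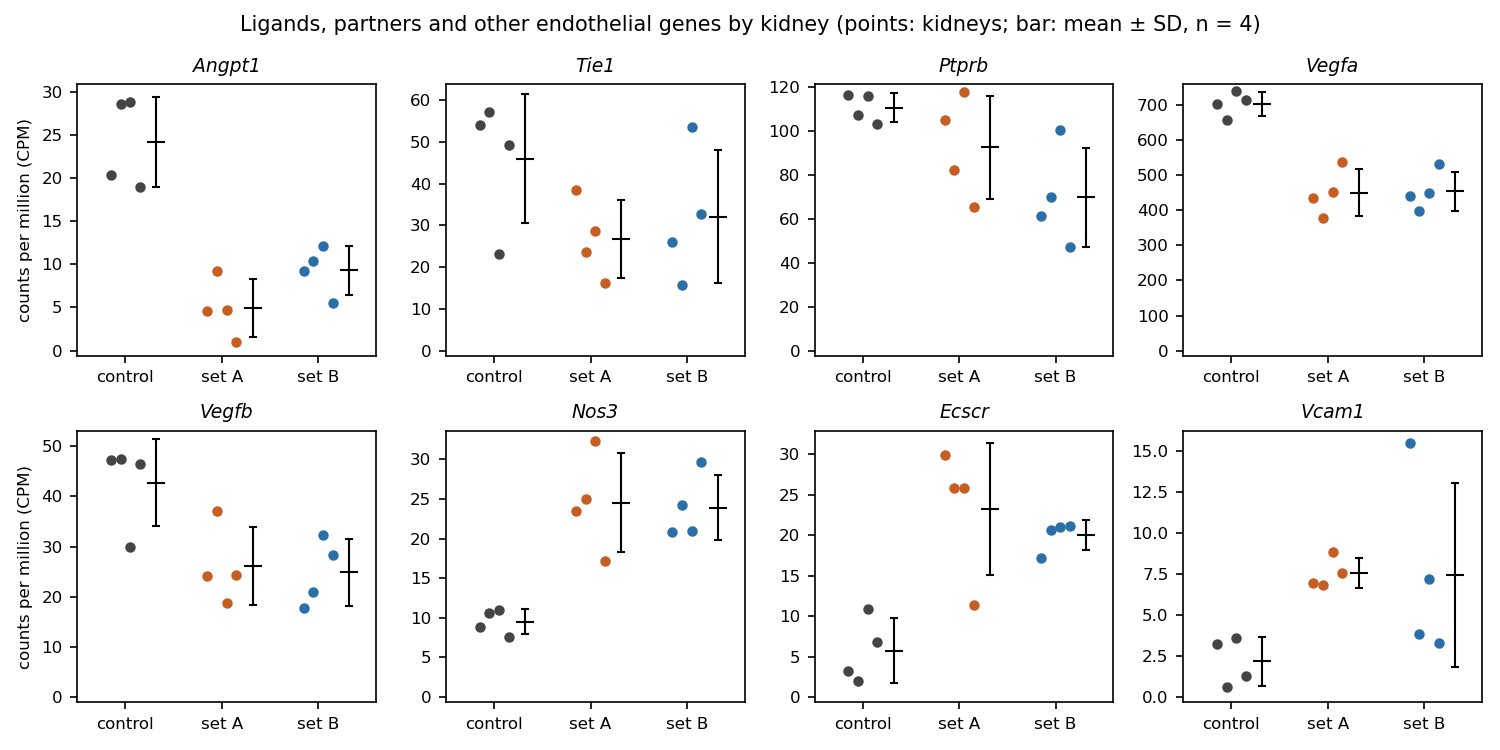
CPM (vertical axes, linear) of ligands and partners of the member receptors and of other endothelial genes in each kidney (points), with the mean ± SD of each group of 4. Angpt1 and Vegfa are lower in all 8 ischemic kidneys than in the controls, Nos3 and Ecscr are higher in all 8, and Vcam1 is above every control in 7 of the 8.

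Other genes of the endothelium were counted in the same way. Of 28 further pan-endothelial genes, 25 were tested, and over both sets 2 were higher and none lower (median log2 fold change -0.23), beside 12.2% of all genes tested as higher and 14.2% as lower. Nos3, the endothelial nitric oxide synthase, rose by 1.32 ± 0.26 on the log2 scale (edgeR adjusted p = 5.61e-04), from 9.49 to 24.2 CPM. Ecscr, an endothelial cell surface regulator of chemotaxis and apoptosis signalling, rose by 1.88 ± 0.41 (adjusted p = 0.00168), from 5.71 to 21.6 CPM. All 8 ischemic kidneys were above all controls for both genes. The only gene of this list lower in set B alone was Ptprb, Myct1 had no counts, and Icam2 had 1 count in a single control kidney and 0 in the others.

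**Figure D5:**
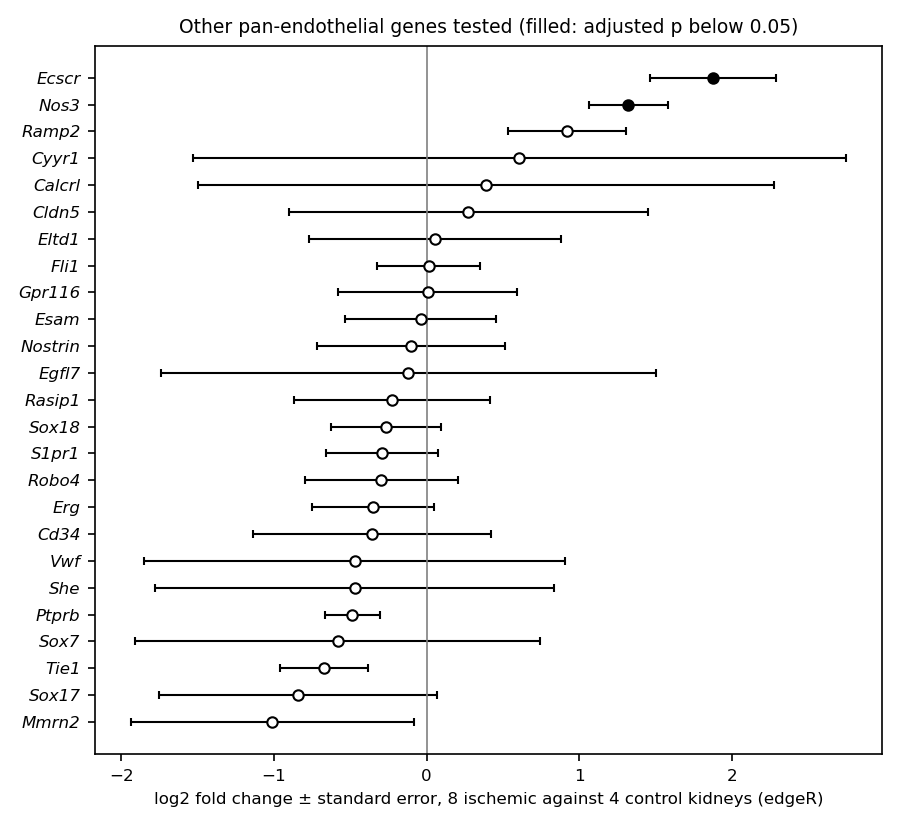
Log2 fold change with its standard error (horizontal axis, edgeR, 8 ischemic against 4 control kidneys) of the 25 other pan-endothelial genes tested, sorted by size. Ecscr (1.88) and Nos3 (1.32) are the only filled points, which mark an adjusted p below 0.05, and 16 of the 25 lie below 0.

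The counts in the lists that follow stand beside 26.4% of all genes tested as called over both sets, 12.2% as higher and 14.2% as lower. In the endothelial activation and thrombosis list, 2 of 6 tested genes were higher over both sets and none lower (median log2 fold change 1.79). They were Nos3 and Vcam1, a leukocyte adhesion molecule. Control kidneys held 0.587 to 3.62 CPM of Vcam1. Those of set A held 6.82 to 8.82 CPM and those of set B 3.32 to 15.4 CPM, and 1 kidney of set B lay below the highest control. Vcam1 rose by 1.77 ± 0.63 on the log2 scale (edgeR adjusted p = 0.0429), but its call was lost without a low-count filter (0.0627) and when any of 9 kidneys was left out (control replicates 1, 2 and 4, all 4 of set A and set B replicates 1 and 3), over a range of 0.0257 to 0.133. Sele and Selp had no counts. Several genes of this list are also expressed outside the endothelium.

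In the BMP and TGF-β pathway of Eng, 1 of 9 tested genes was called (median log2 fold change 0.11). Tgfbr2, the type II TGF-β receptor, rose by 0.89 ± 0.20 on the log2 scale (edgeR adjusted p = 0.00179), from 37.6 to 71.2 CPM, with all 8 ischemic kidneys above the controls. Among glomerular endothelial genes, 1 of 4 was called, Lpl, lipoprotein lipase, which fell by 3.62 ± 0.15 (adjusted p = 1.83e-12) from 1226 to 103 CPM and is also made by other cells. The other 3 had positive log2 fold changes and did not pass, at 1.23 for Plat, 0.80 for Tbx3 and 0.11 for Smad6, and the median of the 4 was 0.46. Of 6 tip cell and sprouting genes, 1 was called lower, Esm1, which had no counts for set A and 2.08 CPM in the controls (edgeR adjusted p = 0.0229 over both sets). In set B it had 25 and 19 counts in replicates 1 and 3 and 0 in the other 2 kidneys, and that comparison did not pass (log2 fold change -2.24 ± 2.03, edgeR adjusted p = 0.530). It had 22 to 105 counts in the controls, and its mean over the 12 kidneys lay in the range of 10 to 50 counts where zeros were frequent. Its call was lost without control replicate 2 or 4 (0.057 and 0.0537), over a range of 0.0277 to 0.057 when each kidney was left out, and with the ischemic kidneys fitted as 1 group (0.208) or the replicate block (0.0564). The list as a whole had a median log2 fold change of 0.16. Cxcr4, the CXCL12 receptor, was at 2.26 ± 0.85 with all 8 ischemic kidneys above the controls (edgeR adjusted p = 0.0557), and Pdgfb, a pericyte-recruiting ligand, at 1.19 ± 0.44 with 6 of 8 above (0.0554). Dll4 went the other way, at -1.57 ± 0.71 with 6 of 8 ischemic kidneys below the controls (edgeR adjusted p = 0.114). None of these genes passed, and all were chosen after their values were seen. Of the 6 tested genes of the list, 3 had a negative log2 fold change. None of the 10 arterial and 2 lymphatic genes tested was called (median log2 fold changes -0.08 and -0.51).

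Genes of other kidney cells moved with ischemia, and their part in the results above was not tested. All 6 proximal tubule genes were lower (median log2 fold change -2.51), with a summed level of 394 to 1290 CPM in ischemic against 6244 to 7066 CPM in control kidneys, led by Slc34a1 and Kap. Of 6 podocyte genes 4 were higher, including Plce1 and Wt1 (229 to 419 against 173 to 213 CPM in sum), and of 8 pericyte, mesangial and smooth muscle genes 3 were higher, including Tagln and Acta2. The sum of this last list (732 to 1732 against 404 to 614 CPM) moved mostly with Acta2, at a mean of 715 against 202 CPM. Its other 5 genes did not pass, 3 of them with negative log2 fold changes, at -1.04 for Rgs5 (7 of 8 ischemic kidneys below the controls), -0.15 for Myh11 and -0.10 for Cspg4, and the median of the 8 was 0.32. Of 6 leukocyte genes 2 were lower, Csf1r and Cd3e. Control kidneys held 18 to 182 counts of Cd3e and all 8 ischemic kidneys none, with a mean in the range of 10 to 50 counts where zeros were frequent. The other 4 had positive log2 fold changes that did not pass, at 0.47 for Ptprc, 0.94 for Cd68, 0.13 for Emr1 and 1.85 for Itgam, and the median of the 6 was 0.30. The sum of the list (12.3 to 34.9 against 46.7 to 66.0 CPM) was mostly Csf1r, at a mean of 12.1 against 51.4 CPM, and Cd79a and S100a8 had no counts. Both erythroid genes tested, the beta-globin gene listed as Beta-s and Alas2, were lower (14.5 to 48.9 against 58.2 to 119 CPM). The alpha-globin genes Hba-a1 and Hba-a2 had no counts in any kidney, although Beta-s was at 82.5 CPM in the controls, and Alas2, whose mean lay in the same range of 10 to 50 counts, was at 0 in 6 of 8 ischemic kidneys. Leaving out control replicate 3 ended the calls of Wt1 and Alas2 (edgeR adjusted p = 0.0611 and 0.0749), and leaving out control replicate 2 that of Wt1 (0.0538). With the ischemic kidneys fitted as 1 group, Alas2 was at 0.0677 (adjusted p, edgeR). None of the 2 platelet genes and the 1 fat gene tested was called, at sums of 0 to 11.9 and 0 to 2.12 CPM in ischemic and 0 to 9.26 and 0 to 3.70 CPM in control kidneys.

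The summed level of the 10 members was 198 to 281 CPM in the controls, 154 to 282 CPM for the set A kidneys and 115 to 228 CPM for the set B kidneys, so it overlapped between all groups.

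Genes whose profile over the 12 kidneys was most like that of a member were found by the mean absolute difference of centred and scaled log2 CPM among 9356 genes. For Tek these were Asph (0.284), Aldh2 (0.289) and Ces1g (0.323), beside a median of 1.11 over all genes. For Kdr they were Acadsb (0.282), Creb3l2 (0.285) and Tfb1m (0.305), beside a median of 1.12. Aldh2 is mitochondrial aldehyde dehydrogenase and Acadsb an acyl-CoA dehydrogenase. A difference between ischemic and control kidneys is part of the profile these genes were chosen on, and it was not tested again. For Cdh5 the nearest were Nr1h2 (0.457), Cwc27 (0.471) and Dlc1 (0.489), at a median of 1.15, so no gene followed Cdh5 as closely as the nearest genes followed Tek and Kdr.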

How the data were processed

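RNA from 12 kidneys was converted to stranded mRNA libraries. Per the paper's methods and the submitters' processing notes, reads were checked with FastQC, mapped to mm10 with STAR and counted per gene with HTSeq (versions and the strand setting are not given in the sources used here). The authors deposited raw counts, without normalization. All columns were mapped to a kidney.

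Counts were analysed in edgeR 4.0.16 (R 4.3.3): filterByExpr (minimum count 10, minimum total 15), TMM scaling, and a coefficient for each of 3 groups over all 12 kidneys, tested by two-sided quasi-likelihood F-tests with Benjamini-Hochberg adjustment over 11664 genes (threshold 0.05). Both sets against control is the mean of the set coefficients minus control. CPM use counted totals, and gene positions and the union exon lengths behind RPKM are from GENCODE M21. Log2 CPM for profiles used a prior count of 2. Single genes were also compared by two-sided exact permutation tests (495 splits for 8 against 4 kidneys, 70 for 4 against 4). The fit was tested on simulated data. No pair of kidneys of a group agreed within sampling noise (lowest chi-square per degree of freedom 47.7).

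The members, the 16 gene lists and the tests were chosen with earlier results of these data known. For 1 listed gene the result is not reported here, and it is left out of its list's counts. Genes named by rule are all members and, per list, the 2 largest rises and falls among genes called over both sets. For Cdh5 and called members, the 3 genes of nearest profile (mean log2 CPM of at least 1) were named too. Other listed genes were named outside this rule, some after their values were seen. Alternatives were RLE size factors, no filter, more than 1 CPM in at least 4 kidneys, DESeq2 1.42.0, limma-trend (limma 3.58.1), only the groups compared, the replicate block, and leaving out each kidney. Python 3.11.15, SciPy 1.17.1 and matplotlib 3.10.9 were used.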

Additional observations from a re-analysis of the deposited data

Results flagged for a closer look

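In each group of 4 kidneys, Dixon's criterion was used to find a kidney whose gap to its nearest neighbour took up most of the range of the group. Chance flags about 1 in 20 groups of independent, normally distributed values, and 13 of 114 groups were flagged here. That rate does not carry over, since a single kidney with counts beside kidneys at 0 is always flagged. The ratios also share Cdh5, so the number of flags is not read as an excess. Among the members, Emcn stood apart in set A replicate 3 (0.804 CPM) and set B replicate 1 (0.368 CPM) and Angpt2 in set A replicate 1 (0.671 CPM), each the only kidney of its group with counts. Among ratios of counts to Cdh5, Ehd3 was low in control replicate 4 (1.60), although this kidney remained above all 8 ischemic kidneys. Plvap was high in set B replicate 2 (0.284), Flt1 in set B replicate 1 (0.742) and Tek in set A replicate 2 (4.22).

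Among the other genes named, Ecscr was low in set B replicate 1 (17.2 CPM) and Vegfb in control replicate 3 (29.9 CPM). Cd3e was high in control replicate 2 (4.65 CPM), Alas2 in control replicate 3 (5.38 CPM) and Kap in control replicate 3 (51.7 CPM), and Kap was low in set B replicate 3 (0.0494 CPM, below the floor of 3 counts).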

How the results depend on the processing

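The call of Tek over both sets and in set B held under every alternative run. Of 1186 values recomputed, 1077 kept their direction and side of the threshold or, for values with no test and for counts, stayed near the reported value. Over both sets, 1 member gene in place of 2 was called with RLE size factors, no low-count filter, a CPM filter (above 1 CPM in 4 kidneys or more) or the replicate block, since Kdr was lost, and 1 to 3 were called when each kidney was left out. In set A, 1 member (Tek) in place of 0 was called with no filter, the replicate block, limma-trend or only the groups compared, and 0 to 2 when each kidney was left out. In set B, 1 to 2 were called when each kidney was left out. Between the sets, 1 gene in all was called, and 6 with no filter, 29 with DESeq2 and 0 with limma-trend (683 at an unadjusted p below 0.05) or only the groups compared (336), and 0 to 7 when each kidney was left out. The causes were not tested.

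Direction turned only for differences that did not pass. Leaving out each kidney gave log2 fold changes over both sets of -1.40 to 0.27 for Pecam1, -0.14 to 0.78 for Plvap and -0.12 to 0.27 for Eng. In set A the range was -1.49 to 0.36 for Pecam1 and -0.083 to 0.26 for Flt1. In set B it was -1.77 to 0.18 for Pecam1, -0.82 to 0.81 for Plvap and -0.031 to 0.33 for Cdh5. For set B against set A it was -0.87 to 0.42 for Pecam1, -1.36 to 0.28 for Plvap, -0.46 to 0.019 for Cdh5, -0.53 to 0.088 for Ehd3 and -0.019 to 0.25 for Kdr. With limma-trend, Plvap in set B was -0.24.

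The replicate numbers are shared between groups, but kidneys of the same number did not deviate together (correlations of -0.0554 to 0.0452 over 12 pairs, 0 above 0.1). With the replicate block, 2974 genes were called over both sets, 2491 in set A, 2531 in set B and 1 between the sets. Kdr then had an adjusted p of 0.0585 over both sets and Tek 0.0131 in set A. In set B, Pecam1 turned to 1.06 and Plvap to -0.10, and Pecam1 turned to 2.26 between the sets. Pecam1, Emcn, Plvap and Angpt2 had fewer than 100 counts in every kidney, and whether depth set this was not tested.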
